A study of Mus musculus with 38 samples.

Results

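The genes described here encode the proteins of cystic kidney disease and of the primary cilium on which that disease centres: Pkd1, Pkd2, Pkhd1, Ganab, Bicc1, Ift88, Kif3a and Dzip1l. They were chosen by name, with no measured value in the rule, but with earlier results of these data known. All 8 were among the 55416 genes of one RNA-seq table, 4 of them (Pkd2, Ganab, Bicc1 and Kif3a) were among the 5035 genes of a second RNA-seq table, and 211 of 270806 peaks of accessible chromatin carried the name of one of them. The tissue was the cortical collecting duct (CCD), a segment of the kidney tubule, dissected by hand from kidneys of C57BL/6 mice. In the first comparison wild-type mice had received saline or dDAVP (desmopressin, a synthetic vasopressin analogue that acts on the V2 receptor) for 5 days, with 4 RNA-seq and 3 ATAC-seq libraries in each group. For the RNA library taken as dDAVP number 4, the title gives a duct number of 4 but a dDAVP number of 3, so whether it shares a source with library 3 is not known. In the second, 4 numbered WT units and 4 numbered MT units of 3 RNA-seq libraries each were compared, MT standing for the β-catenin S552 mutation, which alters a target site of protein kinase A. The sample labels gave dDAVP for 5 days and the genotype C57BL/6 for all 24 of these libraries, WT and MT were told apart by titles alone, and the table's own name spoke of no vasopressin, so whether these mice had received dDAVP is unresolved. The MT label could not be checked against the RNA table. Markers of both CCD cell types were present: all 10 principal cell and all 11 intercalated cell markers were listed in both RNA tables, with intercalated sums of 5692 to 7192 TPM in WT units. Principal cell sums were 26215 to 50308 TPM in WT units and 29091 to 44714 TPM in MT units. In the first comparison they were 32103 to 35662 TPM in saline and 70371 to 93944 TPM in dDAVP libraries. The units thus lay below the dDAVP libraries in this sum, which was not tested between the tables. How many animals stood behind a unit or a library was not stated, so p-values measure the spread between units or libraries, which may be partly technical.

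Polycystin-1, the product of Pkd1, is a large membrane receptor, and polycystin-2, the product of Pkd2, is a calcium-permeable channel of the TRP family. They form a complex in the primary cilium, the single sensory projection on most tubule cells, and loss of either gene causes autosomal dominant polycystic kidney disease. Vasopressin raises cyclic AMP in collecting duct cells through the V2 receptor, and this pathway is a known driver of cyst growth, which is why a V2 receptor blocker is used to treat the disease. Fibrocystin, encoded by Pkhd1, is a ciliary membrane protein whose loss causes the autosomal recessive form of the disease.

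RNA was measured as TPM (a transcript's share of its library), a level already divided by transcript length, so levels of different genes can be set side by side. ATAC-seq marks open chromatin by insertion of a transposase, and the authors gave 1 log2 signal for each group and peak. Because the accessibility at the start sites of these genes is described below, upstream sequences of 4 of them are shown first. RefSeq promoter windows on GRCm38.p6 (the build called mm10) were found for 7 of the 8 genes. Each sequence below is the 250 bases before the annotated start site, read 5′ to 3′ on the strand of the gene. Capitals mark a GC box (GGGCGG on either strand) in Pkd1 and an X-box core (GTTGCC) in Kif3a. Pkd2 and Pkhd1 are shown as start regions that held none of the motifs searched, Pkhd1 being the one poorest in G and C.
Pkd1, chr17:24549700-24549949, plus strand: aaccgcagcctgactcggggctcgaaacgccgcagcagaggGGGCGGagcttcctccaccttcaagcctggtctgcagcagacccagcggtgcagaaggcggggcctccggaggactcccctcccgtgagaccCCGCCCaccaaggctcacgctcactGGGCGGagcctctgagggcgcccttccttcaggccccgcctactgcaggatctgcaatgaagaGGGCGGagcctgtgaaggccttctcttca
Pkd2, chr5:104459207-104459456, plus strand: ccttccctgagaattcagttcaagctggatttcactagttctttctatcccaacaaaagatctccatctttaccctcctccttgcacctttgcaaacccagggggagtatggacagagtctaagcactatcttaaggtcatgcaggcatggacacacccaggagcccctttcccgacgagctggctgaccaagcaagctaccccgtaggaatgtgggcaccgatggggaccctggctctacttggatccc
Pkhd1, chr1:20618058-20618307, minus strand: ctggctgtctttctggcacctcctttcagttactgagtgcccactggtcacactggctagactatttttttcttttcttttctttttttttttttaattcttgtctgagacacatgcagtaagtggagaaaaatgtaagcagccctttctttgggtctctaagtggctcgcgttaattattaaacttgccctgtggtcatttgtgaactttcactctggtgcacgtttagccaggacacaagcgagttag
Kif3a, chr11:53567119-53567368, plus strand: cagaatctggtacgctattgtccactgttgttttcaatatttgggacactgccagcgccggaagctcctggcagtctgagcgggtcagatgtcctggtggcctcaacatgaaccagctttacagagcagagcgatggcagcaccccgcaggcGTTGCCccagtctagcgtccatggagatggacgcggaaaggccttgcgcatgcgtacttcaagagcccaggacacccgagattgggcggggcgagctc

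The start regions differed in composition. Over the full windows, which run on to 50 bases past the start, Pkd1 was 66.7% G or C with 18 CpG dinucleotides, and Pkhd1 was 43.3% G or C with 4, against medians of 52.7% and 7 over 32851 windows. The X-box core, part of the site bound by the RFX factors of ciliary genes, lay at -98 in Kif3a and, on the other strand, at 22 bases past the start in Ift88, and 12.5% of all windows held it. Pkd1 held 5 GC boxes and Ganab 2, Kif3a held 1, and 35.7% of all windows had at least 1. The cyclic AMP response element TGACGTCA was in no window of the 7 genes and in 1.79% of all windows, and its shorter core TGACG was likewise in none of the 7 and in 20.8% of all. Both strands were searched for each motif, TGACG is contained in TGACGTCA, and a match in letters is a description and not a binding site.

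Levels of the 8 genes in CCD spanned 14.6-fold in the WT units, from Ganab to Ift88. Ganab, the catalytic subunit of glucosidase II, which trims glycans on new proteins in the endoplasmic reticulum (ER) and is needed for polycystin-1 maturation, was highest at 117 ± 5.7 TPM (SD, n = 4 units). Bicc1, an RNA-binding protein whose loss gives cystic kidneys in mice, followed at 84.6 ± 10.3 TPM. Pkd2 stood at 56.6 ± 2.94 TPM and Pkhd1 at 36.3 ± 3.34 TPM. Kif3a, a motor subunit of kinesin-2, which carries cargo towards the ciliary tip, was at 31 ± 2.27 TPM. Dzip1l, a protein of the basal body and transition zone at the base of the cilium that is mutated in a recessive polycystic disease, was at 23.9 ± 3.51 TPM. Pkd1 was at 21.3 ± 7.01 TPM, and the unit means of Dzip1l and Pkd1 overlapped, so these neighbours were not ordered beyond their spread. Ift88, a subunit of the IFT-B complex whose mutation underlies the orpk mouse, was lowest at 8.02 ± 0.144 TPM. Unit means of every other pair of neighbours in this order did not overlap. Kif3a and Pkd1, which are not neighbours, did: Pkd1 reached 28.8 TPM, above the lowest Kif3a unit at 27.8 TPM. The median over the 15013 genes tested was 15.6 TPM, so Ift88 alone of the 8 lay below it. Pkd2 was 2.66 times Pkd1 in RNA level, as a ratio of the WT means.

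In the comparison of MT with WT, none of the 8 genes passed the test, and 0 of 15013 genes did (0% called; limma on log2(TPM + 1), two-sided, adjusted p under 0.05). At an unadjusted p under 0.05 there were 683 genes, none of the 8 among them, and the fit on all 24 libraries with the unit as a random effect called 1 gene, which was not one of the 8. Groups that do not overlap were seen in 3.02% of all genes and in none of the 8.

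Among the disease receptors and channels, Pkd1 had the largest difference. Its unit means were 25.6, 28.8, 15.7 and 15 TPM in WT units 1 to 4 and 13.7, 13.4, 24.1 and 11.4 TPM in MT units 1 to 4. Units 1 and 2 of WT and unit 3 of MT were high and the other 5 units were low, so the groups overlapped. The fold of MT over WT was 0.747 with a 95% interval of 0.485 to 1.15 (log2 -0.42, SE 0.27, limma adjusted p = 0.969). With 1 unit left out the log2 value ran from -0.64 (without MT unit 3) to -0.26 (without WT unit 2). Pkd2 had unit means of 55, 53.9, 60.6 and 56.9 TPM in WT and 54.8, 56.4, 66.8 and 61.7 TPM in MT. MT units 3 and 4 lay above every WT unit, and MT units 1 and 2 lay inside the WT range. The interval of the fold, 0.943 to 1.18, was narrow around 1.06. Without MT unit 3 the log2 fold change of Pkd2 was 0.03 in place of 0.08. Pkhd1 had unit means of 34.1, 40.8, 33.5 and 37 TPM in WT and 43.6, 39.3, 36.3 and 32.6 TPM in MT. Both the highest and the lowest Pkhd1 unit were MT, and the interval of the fold was 0.89 to 1.22.

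Of the 2 genes of the ER and of RNA binding, Bicc1 had the smallest unadjusted p of the 8, 0.0873 in the limma fit (adjusted p = 0.969). Its unit means were 74.1, 98.7, 82.6 and 82.8 TPM in WT and 87.6, 65, 64.8 and 72.2 TPM in MT. MT units 2, 3 and 4 lay below every WT unit and MT unit 1 lay above 3 of them, and the fold was 0.856 (95% interval 0.712 to 1.03). With 1 unit left out the log2 value of Bicc1 ran from -0.32 (without MT unit 1) to -0.15 (without WT unit 2). Ganab had unit means of 112, 113, 124 and 119 TPM in WT and 115, 122, 122 and 126 TPM in MT, with overlapping groups and a fold between 0.96 and 1.13.

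Of the 3 cilium genes none had groups apart. Ift88 was at 8.23, 7.94, 7.96 and 7.94 TPM in WT and at 8.96, 7.76, 8.62 and 7.48 TPM in MT, with the 4 WT units inside the range of the MT units and a fold between 0.902 and 1.15. Kif3a was at 30.9, 32.5, 32.7 and 27.8 TPM in WT and at 30.8, 30.5, 32.1 and 31 TPM in MT, all 4 MT units inside the WT range, with a fold between 0.912 and 1.11. Dzip1l was at 21.9, 27, 20 and 26.6 TPM in WT and at 24.9, 22.1, 25.6 and 18 TPM in MT, where unit 4 was the lowest of all 8, and its fold lay between 0.768 and 1.17. These intervals bound the difference that the units allow, and a p that misses the threshold does not show equal levels. MT unit 4 decided the sign of Dzip1l, whose log2 fold change was -0.07 with all units and 0.03 without it. Marker sums of neighbouring segments varied between units: the 11 proximal tubule markers summed to 224 to 4683 TPM in WT and 123 to 2044 TPM in MT, and the 7 thick ascending limb markers to 41.7 to 1668 TPM and 47.1 to 175 TPM, with no marker of either list at a mean of 0. Their part in the values above was not tested.

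**Figure D1:**
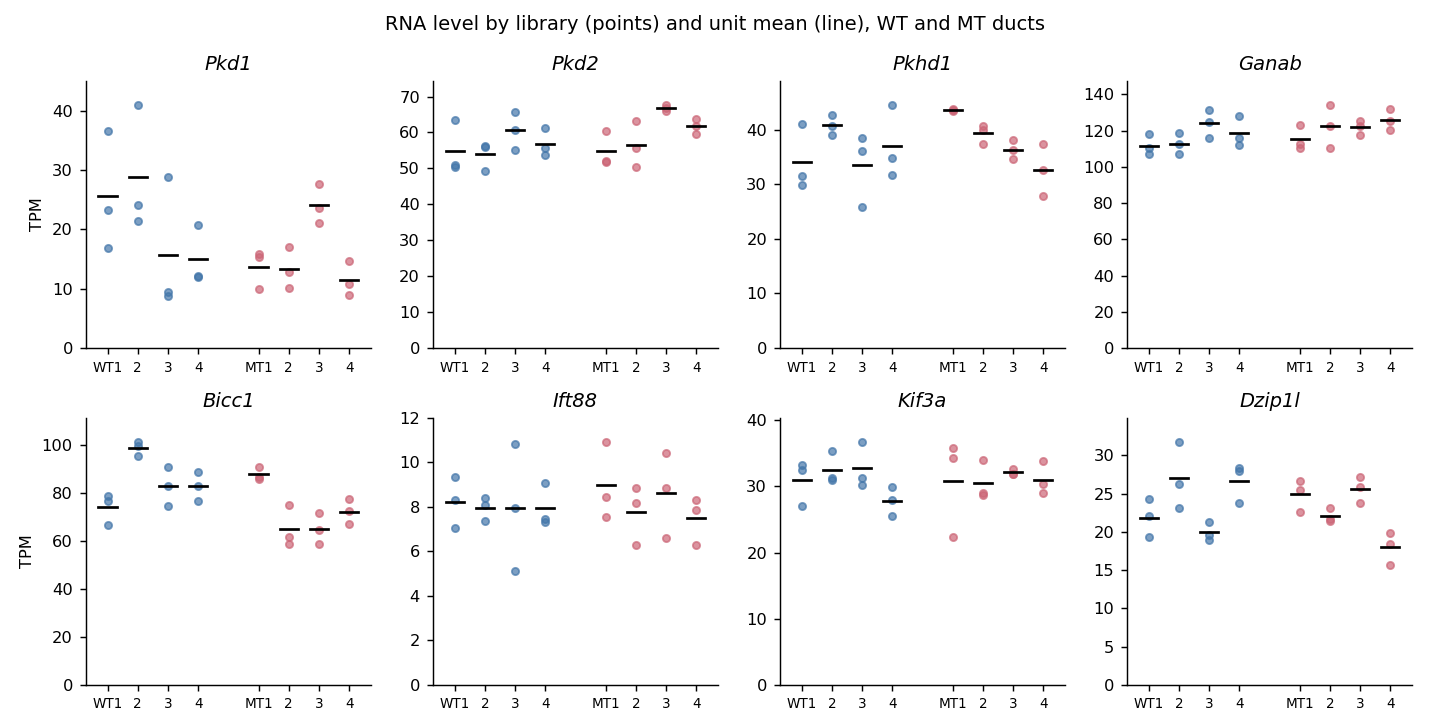
RNA level in TPM (vertical axes from 0) of the 8 genes in each of 24 libraries (points) with the mean of the 3 libraries of a unit (line), for WT units 1 to 4 (blue) and MT units 1 to 4 (red). The WT and MT unit means overlapped for every gene, and as a ratio the points of Pkd1 spread most within a unit, 3.31-fold from 8.73 to 28.9 TPM in WT unit 3.

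Pkd1 was the least repeatable of the 8 genes between libraries of 1 unit. The 3 libraries of WT unit 3 gave 8.73, 28.9 and 9.45 TPM, a 3.31-fold range. WT unit 1 gave 16.9, 23.3 and 36.7 TPM and WT unit 2 gave 21.5, 24.1 and 40.9 TPM. In each of these units 1 library stood above the other pair. MT unit 3, the highest MT unit, gave 27.6, 23.6 and 21.1 TPM. The within-unit SD of Pkd1 on the log2 scale was 0.49, larger than that of 96.2% of the 2648 genes whose level was within 1.5-fold of its own, where the median SD was 0.17. The same SD was 0.12 for Pkd2, 0.09 for Ganab and 0.12 for Bicc1, the 3 most abundant genes, and 0.26 for Ift88, the least abundant. Only Pkd1 of the 8 stood above 80% of genes of like level, and Pkhd1, at 75.6% with an SD of 0.18, came next. The cause of the spread of Pkd1 was not tested.

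Across the 24 libraries, the genes whose log2 level followed Pkd1, Pkd2 and Pkhd1 most closely were listed as a description. This was done over 8842 genes with a mean of at least 10 TPM, and libraries of 1 unit may share their source. For Pkd2 they were Cog6 (Pearson r = 0.902), Slc35e2 (0.832), Scnn1a (0.813), Etnk1 (0.81) and Tomm70a (0.809), of which Scnn1a makes a subunit of ENaC, the sodium channel of principal cells. For Pkhd1 they were Arhgef12 (0.831), Lpar1 (0.796), Plod2 (0.786) and Phyhipl (0.786). Pkd1 had no gene above 0.69: the closest were Tsc22d3 (0.69), Josd2 (0.623), Hikeshi (0.62), Zbtb16 (0.62) and Chchd1 (0.612). The 3 lists shared no gene.

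In the comparison of dDAVP with saline, a gene was listed where all 8 libraries gave it over 10 TPM. Pkd1, Pkhd1, Ift88 and Dzip1l were not listed, so by this rule at least 1 library of each was at 10 TPM or less, and their RNA could not be compared between dDAVP and saline. None of the 4 listed genes passed the test, where 35 of 5035 genes (0.695%) did, 28 higher (0.556%) and 7 lower (0.139%). The authors' deposited table gave the 4 genes an adjusted p of 1.0 from DESeq. Across all genes the median log2 fold change was -0.06, and 8.58% of genes had groups that did not overlap, against none of the 4.

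Pkd2 was at 37.6, 46.1, 25.9 and 33.3 TPM in saline libraries 1 to 4 and at 47.9, 44.4, 28.4 and 27.7 TPM in dDAVP libraries 1 to 4. The lowest and the highest library of one group lay close to those of the other, and the groups overlapped along nearly their whole range. The fold was 1.03 with a 95% interval of 0.656 to 1.61 (limma adjusted p = 0.973). Ganab was at 68.9, 76.1, 91.7 and 28.1 TPM in saline and at 71.3, 82.4, 56 and 73.6 TPM in dDAVP. Its saline library 4 was the lowest value of the 8 libraries by a wide margin, and the fold was 1.15 (0.679 to 1.96, adjusted p = 0.868 with limma).

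Bicc1 was at 61.3, 63.5, 30.1 and 191 TPM in saline and at 79.9, 78.6, 57.3 and 73.4 TPM in dDAVP. Saline held both the highest library, number 4, and the lowest, number 3, with all dDAVP libraries between them. The fold was 1.04 (0.525 to 2.06, limma adjusted p = 0.974). Kif3a was at 31.6, 25.7, 21 and 62.3 TPM in saline and at 40.3, 34, 21.6 and 15.8 TPM in dDAVP. Saline library 4 was again the highest, and the fold was 0.82 (0.453 to 1.49, limma adjusted p = 0.833).

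Over all genes, saline libraries 3 and 4 also resembled the rest least, with median correlations of 0.863 and 0.839 against 0.913 to 0.934. The 5 listed proximal tubule markers summed to 42286 TPM in saline library 3, the highest of the 8 libraries, and to 1035 TPM in saline library 4, the lowest. The other 6 libraries lay between 1698 and 14798 TPM. Without saline library 4 the log2 fold change of Ganab was -0.16 in place of 0.20, that of Kif3a 0.02 in place of -0.29, and that of Bicc1 0.54 in place of 0.06. Without saline library 3 that of Bicc1 was -0.33 and that of Pkd2 -0.10 in place of 0.04. Without both libraries the values were -0.20 for Pkd2, -0.04 for Ganab, 0.20 for Bicc1 and -0.12 for Kif3a, and none of the 4 passed the test in any of these fits. The 10 principal cell markers summed to 32103 to 35662 TPM in saline and to 70371 to 93944 TPM in dDAVP. Most of this sum is the water channel Aqp2, with a mean of 20171 TPM in saline and 60871 TPM in dDAVP, and the list did not move as one: Aqp2 and Aqp3 passed the test as higher and Scnn1a as lower (log2 -1.03, limma adjusted p = 0.0215), and the other 7 did not pass. The 11 intercalated cell markers summed to 4109 to 5119 TPM in saline and to 2340 to 3450 TPM in dDAVP, without overlap. The part of these marker sums in the values of the 4 genes was not tested. In bulk RNA, fewer cells of a type and less RNA per cell cannot be told apart.

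**Figure D2:**
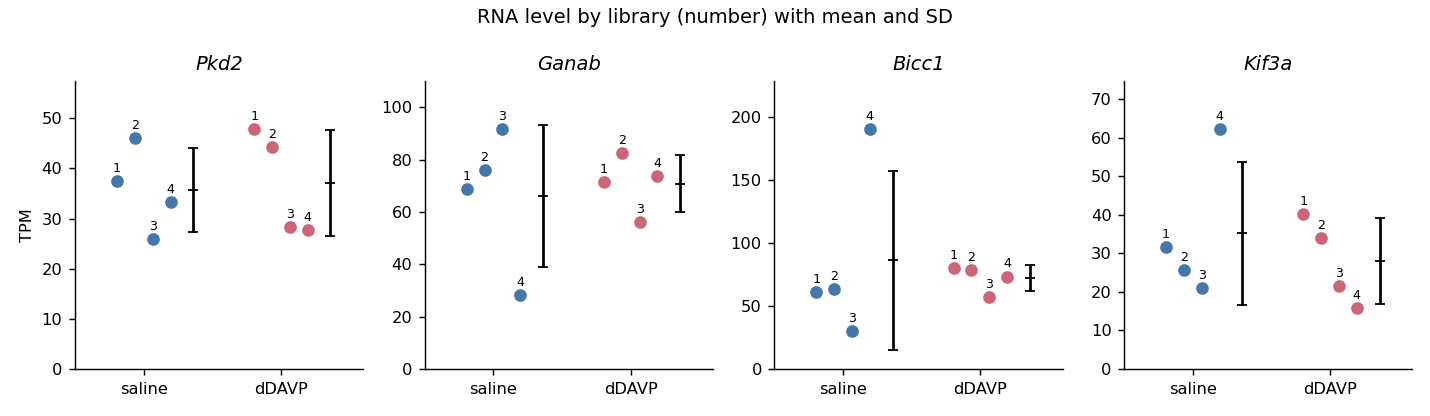
RNA level in TPM (vertical axes from 0) of the 4 listed genes in saline (blue) and dDAVP (red) libraries, numbered 1 to 4, with the group mean and SD in black. Saline library 4 was highest for Bicc1 (191 TPM) and Kif3a (62.3 TPM) and lowest for Ganab (28.1 TPM), and the groups overlapped for all 4 genes.

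**Figure D3:**
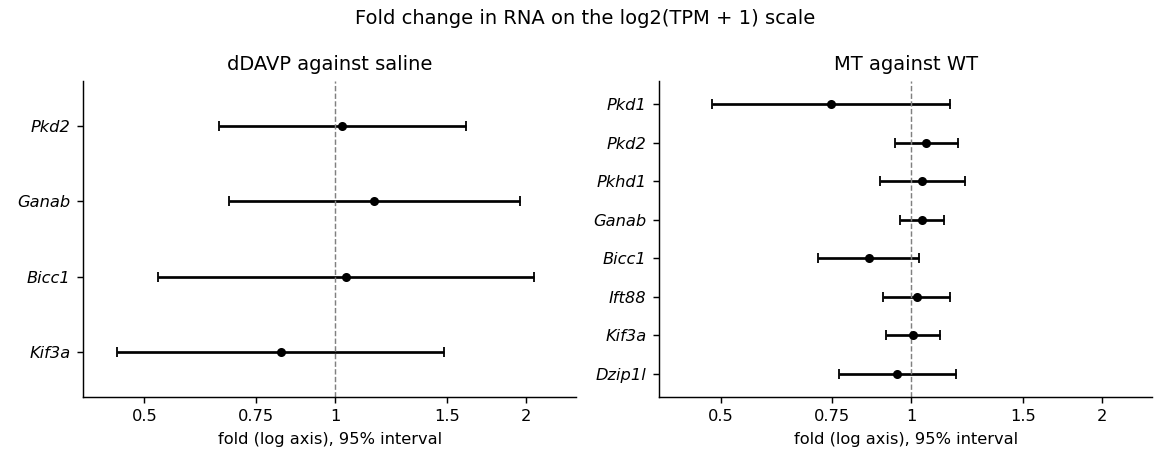
Fold change with its 95% interval from limma on log2(TPM + 1), on a log axis, for the 4 genes listed in the dDAVP comparison (left) and all 8 in the comparison of MT with WT (right). Every interval included 1, and those of the dDAVP comparison were wider, as for Pkd2 at 0.656 to 1.61 against 0.943 to 1.18.

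The wider machinery around these genes was expressed in CCD. The 8 lists of cystic disease and primary cilium genes held 131 symbols, some of them aliases of the same gene, and not every symbol was matched. They matched 125 genes in the table of MT and WT. Of these, 116 were at 1 TPM or more in WT units, and the median over the 125 was 20.9 TPM. By role, 21 of 22 genes of kinesin-2 and IFT-B, the complex that carries cargo to the tip, reached 1 TPM. For IFT-A and dynein-2, which return it, 9 of the 12 symbols were matched, and all 9 reached 1 TPM. So did 12 of 12 BBSome genes (membrane protein sorting), 23 of 24 of the transition zone and inversin compartment (the gate at the ciliary base), 15 of 15 of the basal body and 12 of 12 of the ER genes of polycystin maturation. Among 17 polycystins, fibrocystin and cystic regulators 11 did. Genes of motile cilia, which tubule cells lack, were by contrast at 1 TPM or more in 2 of 13 cases, with a median of 0.28 TPM. Foxj1, the regulator of the motile programme, was at 0.107 TPM and the axonemal dynein Dnah5 at 0.007 TPM, and the exceptions were Rsph1 (5.69 TPM) and Ccdc39 (2.71 TPM).

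No gene of these lists passed the test in either comparison. In MT against WT, 117 genes of the 8 lists were tested, 67 had a log2 fold change above 0 and the median was 0.02, against 7984 of 15013 genes above 0 and a median of 0.01 over all genes tested. The smallest p belonged to Sec63, an ER translocation gene whose mutation causes polycystic liver disease, at 28.8 TPM in WT (27.7 to 30.6) and 33.7 TPM in MT (32.6 to 35.1). The log2 fold change of Sec63 was 0.22 and the limma adjusted p was 0.969. Hspb11 (Ift25), of IFT-B, was at 21.6 and 25.4 TPM (log2 0.23), and Mks1, of the transition zone, at 11.6 and 13.7 TPM (log2 0.23). Pde6d, a carrier of prenylated cargo to the cilium, was at 67.8 and 61.8 TPM (log2 -0.13), and Inpp5e, the phosphatase that sets the ciliary lipid composition, at 29.8 and 26.8 TPM (log2 -0.15). Bbs7, of the BBSome, was at 5.11 and 5.99 TPM (log2 0.20) and Pcm1, of the centriolar satellites, at 12.4 and 10.7 TPM (log2 -0.20), all of them with a limma adjusted p of 0.969. Unit means of Sec63, Hspb11, Pde6d and Inpp5e did not overlap between WT and MT, as in 3.02% of all genes, and these genes were picked for their small p.

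In dDAVP against saline, 45 genes of the 8 lists were listed and tested, 28 had a log2 fold change above 0 and the median was 0.06, against 2196 of 5035 genes and a median of -0.06 over all. The table listed no basal body gene and no motile cilium marker. B9d1, of the transition zone, had the smallest adjusted p of the genes named, 0.456 by limma, at 42.5 to 74 TPM in saline and 79.1 to 98.6 TPM in dDAVP (log2 0.53). Unc119b, a carrier of myristoylated cargo, was at 52.6 to 85.6 TPM in saline and 91.5 to 127 TPM in dDAVP (log2 0.48, limma adjusted p = 0.482). The groups of B9d1 and Unc119b did not overlap, as in 8.58% of all genes, and both were picked for their small p. Ift22, of IFT-B, was at 41.3 to 75.3 and 64 to 109 TPM (log2 0.53), and Ift122, of IFT-A, at 36.1 to 56.5 and 18.8 to 39.5 TPM (log2 -0.56). Dnajb11, an ER co-chaperone whose mutation causes an atypical polycystic disease, was at 86.8 to 153 and 132 to 232 TPM (log2 0.47, limma adjusted p = 0.495), with overlapping groups. Single libraries moved several of these values: without saline library 4 the log2 fold change was 0.29 for Dnajb11 and 0.31 for Unc119b, and without dDAVP library 3 that of Ift122 was -0.36.

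The authors' accessibility signal at the 1 start site used per gene was lower in dDAVP than in saline. This held at all 8 genes, by a like amount. Each gene had 1 peak over that site, with a saline log2 signal of 8.01 to 10.1. The log2 fold change deposited by the authors lay between -0.56 and -0.41, with a median of -0.52. In 5 of the 8 the authors' adjusted p was under 0.05. Peaks of this strength were often called lower across the genome: 53% of all peaks with a mean log2 signal of 7 to 10 were called lower and 0.0688% higher, as were 25.8% and 0.167% of all promoter peaks. The table gave group values alone, so no spread between ATAC-seq libraries could be given and no test was run on it here. The RefSeq span of Kif3a begins upstream of the start site used, at chr11:53565701, under no peak named with Kif3a. Those of Pkd1 and Pkd2 also begin upstream of the start site used, under other peaks. At Pkd1 that peak (chr17:24548541-24548718) had a log2 fold change of -0.55 (authors' adjusted p = 0.374). At Pkd2 it (chr5:104453605-104454056) had -1.11 (authors' adjusted p = 0.0924), outside the range of the 8.

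The Pkd1 start-site peak (chr17:24549321-24550729, 1409 bases, promoter) was the strongest of the 8. The authors' log2 signal was 10.1 in saline and 9.6 in dDAVP, with a deposited log2 fold change of -0.41 and an adjusted p of 0.000669. It had the smallest fall of the 8 and the smallest p. The Pkd2 peak (chr5:104458877-104460504, exon 1 of 15) fell from 8.89 to 8.22 (log2 fold change -0.56, authors' adjusted p = 0.01), and the Pkhd1 peak (chr1:20617593-20618607, promoter) was at 8.3 and 7.72 (-0.47, 0.0794). Both Pkd1 and Pkd2 peaks were called lower and that of Pkhd1 was not.

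At Ganab (chr19:8897508-8898386, promoter) the authors' signal fell from 8.25 to 7.58 (-0.55, adjusted p = 0.0308). At Bicc1 (chr10:71158887-71160009, exon 1 of 21) it fell from 8.65 to 8.01 (-0.52, adjusted p = 0.0275). The peak of Dzip1l (chr9:99629197-99630084, promoter) fell from 8.42 to 7.78 (-0.53, authors' adjusted p = 0.0351). The peaks of the ciliary transport genes were not called: Ift88 (chr14:57423737-57424489, promoter) was at 8.01 and 7.38 (-0.52, 0.0556) and Kif3a (chr11:53567091-53568042, annotated to intron 1 of 17) at 8.19 and 7.61 (-0.47, 0.0831). These 2 genes and Pkhd1, the 3 without a call, had log2 fold changes inside the range of the 5 with one. The start-site peaks of Kif3a, Pkd2 and Bicc1, which the authors' annotation does not class as promoter, were added after their values had been seen, as the peaks that cover the start.

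Against peaks of like signal, the peaks at the 8 start sites used did not stand apart. The median log2 fold change of all peaks within 0.5 of the same mean signal was -0.50 to -0.42, and the 8 genes differed from that median by -0.06 (Pkd2) to 0.04 (Pkhd1). Between 31.7% (Pkd2) and 60% (Pkhd1) of like peaks had a lower fold change than the peak of the gene. Between 43.3% (Ift88) and 90.2% (Pkd1) of like peaks were called lower at an adjusted p under 0.05. Relative to like peaks the difference at Pkd1 was 0.01, at Kif3a 0.03 and at Ganab -0.05. At the upstream ends of the RefSeq spans it was -0.879 for the Pkd2 peak and -0.225 for the Pkd1 peak.

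**Figure D4:**
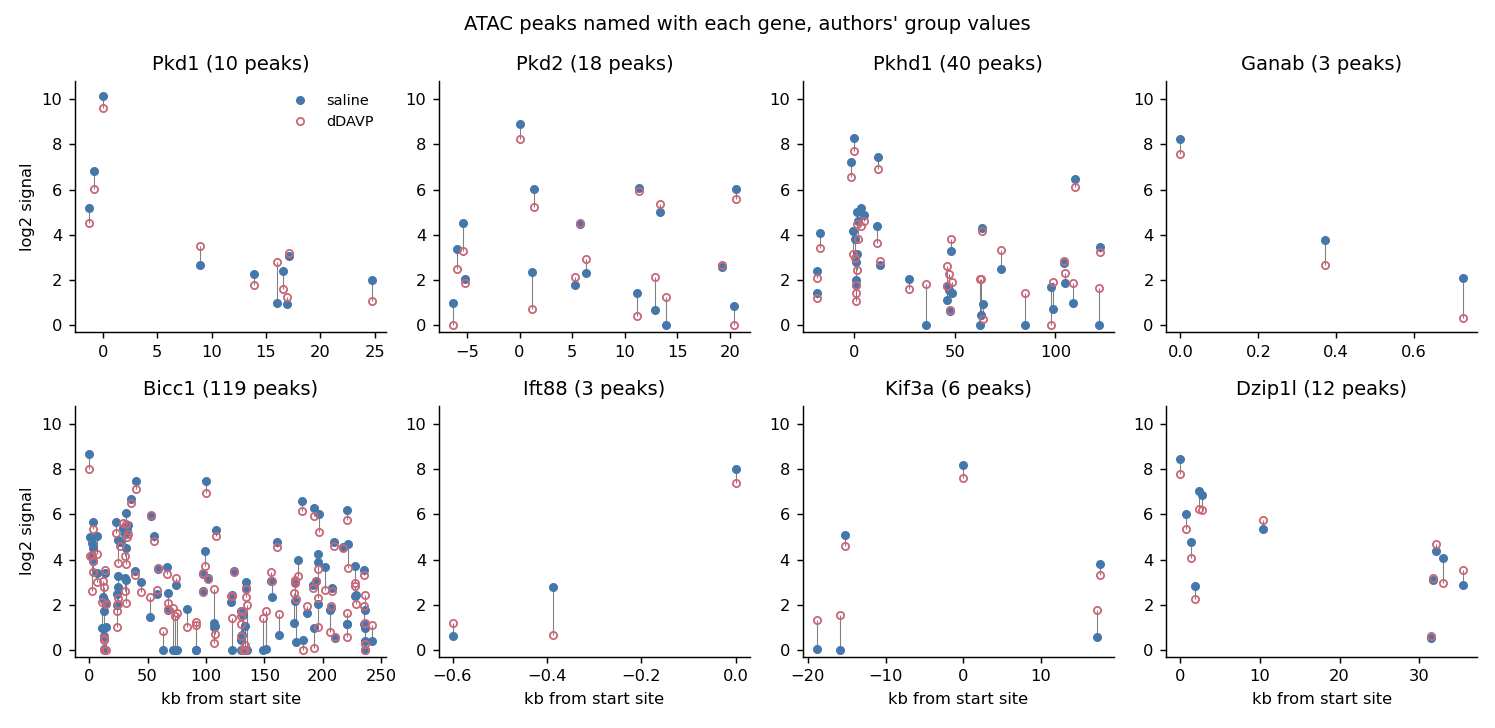
Authors' log2 signal (vertical axis) of every peak named with each of the 8 genes against distance from the start site in kb (negative upstream), with saline as filled blue points, dDAVP as open red points and a grey line joining the values of 1 peak. The peak at 0 is the strongest for each gene, at 8.01 to 10.1 in saline, and its dDAVP value lies below its saline value in all 8.

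Over all 211 peaks named with the 8 genes, 11 (5.21%) were called lower and 0 higher by the authors' adjusted p, against 5.98% and 0.846% of all peaks. Bicc1 held 119 of them, 110 in its introns, and Pkhd1 held 40. Pkd2 had 18, Dzip1l 12, Pkd1 10, Kif3a 6, and Ganab and Ift88 3 each. Of the 211, 173 were intronic, and 4.02% of all intronic peaks were called lower and 0.8% higher. Bicc1 and Pkhd1 are the longest of the 8 genes, at 236861 and 560304 bases.

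Beyond the start sites 6 of 203 peaks were called, all lower, where 5.98% of all peaks were called lower. A second Pkd1 promoter peak (chr17:24548886-24549189), at -761 bases from the start, fell from 6.82 to 6.02 (log2 fold change -0.68, authors' adjusted p = 0.0166). A peak in intron 1 of Pkd2 (chr5:104460869-104461268) fell from 6.05 to 5.22 (-0.71, 0.0492), and one upstream of Pkhd1 (chr1:20619345-20619684, intergenic) from 7.22 to 6.55 (-0.56, 0.0472). In these 3 genes of receptors and channels the called peaks lay within 1.5 kb of the start site. A peak in intron 1 of Dzip1l (chr9:99631821-99632104) fell from 7.04 to 6.21 (-0.71, adjusted p = 0.0115). Bicc1 had the 2 largest falls among the called peaks: in intron 1 (chr10:71157117-71157218) from 4.1 to 2.62 (-1.36, 0.0467), and in intron 3 (chr10:70963088-70963392) from 3.9 to 2.29 (-1.47, 0.0389), 196298 bases from the start site. Of peaks of like signal, 24.9% (Pkd1), 12% (Pkd2), 30.7% (Pkhd1) and 27.7% (Dzip1l) were called lower. For the Bicc1 peaks this share was 0.964% (intron 1) and 0.839% (intron 3). Their differences from the median of like peaks were -1.19 and -1.34, among 119 peaks named with Bicc1.

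Apart from the start-site peaks of Pkhd1 and Ift88, 3 promoter peaks were not called. Ift88 had a pair upstream of its start site, at 0.634 in saline and 1.2 in dDAVP (chr14:57423378-57423472, authors' adjusted p = 0.835) and at 2.76 and 0.681 (chr14:57423555-57423684, 0.149). Pkhd1 had 1 (chr1:20618683-20618994) at 4.18 and 3.18 (log2 fold change -0.88, adjusted p = 0.235).

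Away from the start sites the fold changes of these genes lay close to those of all peaks of the same strength, taken as the mean log2 signal of both groups. Of 12 other peaks with a mean signal of 6 or more, 1 (8.33%) had a fold change above 0, a peak in an intron of Pkd2 (chr5:104470802-104471649, 0.01), against 4.57% of all peaks of that strength. Of 73 with a mean signal of 3 to 6, 28.8% were above 0, against 28.3% of all. Of 118 with a mean signal under 3, 58.5% were above 0 with a median of 0.24, against 56.8% and 0.18 for all. The largest fold change was that of a peak of 74 bases in intron 11 of Pkhd1 (chr1:20582109-20582182), at the floor of 0 in saline and 1.81 in dDAVP, with a deposited log2 fold change of 4.91 and an adjusted p of 0.0564. A fold against a group at the floor is not a measured ratio, and 17 of the 211 peaks were at 0 in saline and 9 in dDAVP.

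**Figure D5:**
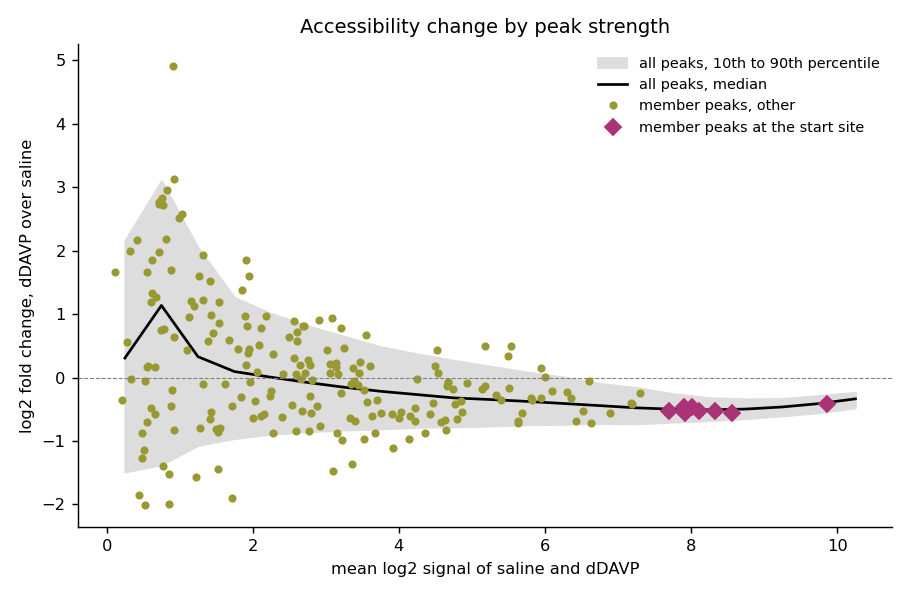
Deposited log2 fold change of dDAVP over saline (vertical axis) against the mean log2 signal of the 2 groups (horizontal axis) for the 8 start-site peaks (diamonds) and the other 203 peaks of these genes (circles), over the median (line) and 10th to 90th percentile (grey) of all peaks. The diamonds lie on the line for all peaks, between -0.56 and -0.41.

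Set beside each other, the accessibility and RNA values of the 4 genes with both were as follows after dDAVP. At Pkd2 the start-site signal had a log2 fold change of -0.56 and the RNA 0.04 (SE 0.29). At Ganab they were -0.55 and 0.20 (SE 0.35), at Bicc1 -0.52 and 0.06 (SE 0.45), and at Kif3a -0.47 and -0.29 (SE 0.39). The interval of each RNA fold included 1, and for Pkd2, Ganab and Bicc1 the start-site peak was called lower.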

How the data were processed

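Both RNA-seq tables hold TPM values deposited by the authors, and the submitters' processing notes name STAR, RSEM and mm10. Per the file headers, one lists only genes with a lowest TPM above 10; its 8 log2 copies of per-library columns were not used. Its adjusted p-values from DESeq were deposited by the authors. The ATAC-seq table holds the authors' log2 group signal, log2 fold change and adjusted p-value; cutadapt 3.4, Bowtie2, MACS2 and DiffBind are named in the submitters' processing notes. Its deposited fold change is not the plain difference of the group signals. TPM keeps no read depth, so depth is unknown for every library. RNA groups were compared by limma 3.58.1 (moderated with a trend, R 4.3.3) on log2(TPM + 1) for genes with a mean of at least 1 TPM, with Benjamini-Hochberg adjustment over all genes and a threshold of 0.05. For MT and WT, unit means over 3 libraries served as replicates. The code was tested on simulated data. Members and gene lists were chosen with earlier results of these data known. Named genes were the 8 members, list genes past the threshold or up to 3 of smallest p per list, promoter peaks, called peaks and the 5 genes of highest correlation with Pkd1, Pkd2 and Pkhd1; a few of these are not reported here. Start-site peaks were defined after the peaks had been seen, with 1 start site per gene. Gene positions and sequences came from RefSeq on GRCm38.p6. Alternatives were other pseudocounts, minimum levels, scalings, a replicate block, and each library or unit left out.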

Additional observations from a re-analysis of the deposited data

Results flagged for a closer look

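Of 48 groups of 4 samples examined for the 8 members and the named list genes, 3 held a sample whose gap to the nearest other sample was large for the range of its group. Chance alone flags about 1 in 20 groups. In the WT units, Ift88 was at 8.23 TPM in unit 1 against 7.94 to 7.96 TPM in the others, a small difference in a very tight group. Bbs7 was at 6.4 TPM in WT unit 2, the highest of its group. In the saline libraries, Unc119b was at 52.6 TPM in library 4, the lowest, against 84.1 to 85.6 TPM in the other 3, and that library was also lowest for Ganab and highest for Bicc1 and Kif3a. No cause was tested.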

How the results depend on the processing

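No member and no other list gene passed the test in either RNA comparison under any of the 17 alternatives run for each. The number of all genes called for dDAVP against saline, 35, became 18 without the trend, 8 with the replicate block and 7 to 47 with 1 library left out; it was 7 without dDAVP library 3, 16, 23 and 19 without dDAVP libraries 1, 2 and 4, and 18 and 17 without saline libraries 1 and 2. For MT against WT, 0 became 1 with the unit as a random effect and 0 to 5 with 1 unit left out: 1 without WT unit 3 or MT unit 2, 2 without WT unit 4 and 5 without MT unit 4. The cause was not tested. Same-numbered samples correlated at -0.149 to 0.23 (saline with dDAVP) and -0.028 to 0.04 (WT with MT). Samples of different number correlated at -0.227 to 0.193 and -0.25 to 0.3. The numbers were not taken as pairs, and for saline with dDAVP, where a same-numbered pair was highest, these values do not settle whether they are. With the replicate block 0 genes were called for MT against WT. Signs of several uncalled values turned. Leaving out saline libraries 3 and 4 together, chosen after seeing the data, gave log2 fold changes of -0.205 for Pkd2 and -0.045 for Ganab. With 1 library left out the dDAVP values ran from -0.101 to 0.167 for Pkd2, -0.157 to 0.399 for Ganab, -0.334 to 0.54 for Bicc1 and -0.487 to 0.024 for Kif3a. With 1 unit left out those of MT against WT ran from -0.01 to 0.126 for Pkhd1, -0.012 to 0.065 for Ift88, -0.041 to 0.035 for Kif3a and -0.153 to 0.027 for Dzip1l, and rescaling by the median of ratios gave -0.014 for Ift88 and -0.036 for Kif3a. At an authors' adjusted p of 0.01, 1 of the 211 peaks, the start-site peak of Pkd1, was called lower, in place of 11 in all and 5 at start sites. The share of all peaks called at 0.01 was not counted. At 0.05, 90.2% of peaks like that of Pkd1 in signal were called lower, so the call is not particular to Pkd1. Minus the median of like peaks, the start-site log2 fold change of Pkd1 was 0.006, that of Kif3a 0.032 and that of Pkhd1 0.038. RNA depth is unknown, and ATAC-seq was given as group values.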
